A study of Homo sapiens with 2 samples.

Results

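The broad peaks were the 612 peaks of 3000 bp or more among the 66954 peaks of a MYBL2 ChIP-seq profile of A673 cells (0.914%). Members were chosen by the width of the deposited peak alone, from its start to its end, so their width is a description and no finding, and the height of a peak comes from the same pileup of fragments as its width. The study had profiled A673, an established Ewing sarcoma cell line that carries the EWSR1-FLI1 fusion, to find where MYBL2 sits on chromatin. There was 1 library from a MYBL2 immunoprecipitation and 1 input library of sheared chromatin without antibody, both of untreated wild-type cells. The antibody is named on the labels as a rabbit monoclonal to MYBL2, whereas the methods specify the phosphorylated and so activated protein as its target. With 1 library in each group, replicate error could not be given and no test was made between groups or between kinds of peaks. Percentages of peaks carry exact (Clopper-Pearson) 95% binomial intervals that cover counting over peaks only. Coordinates are hg19, counted from 1.

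MYBL2, also called B-MYB, is a DNA-binding factor of the MYB family that is made in dividing cells. It works with the MuvB complex on promoters of late cell cycle genes, many of which hold a CHR element, and such a factor is usually seen by ChIP-seq as a narrow peak around a short DNA site. A peak of several kilobases is instead the form known for histone marks and for factors that follow RNA polymerase II along a transcribed gene.

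To show what lay under the highest point of a broad peak, 151 bases centred on the summit are printed for 4 members among the 12 widest and the 8 with the highest fold enrichment whose window met no annotated exon. The HOXD3 window (chr2:176994227-176994377) and the BARHL2 window (chr1:91183738-91183888) belong to 2 of the 12 widest peaks. The HOXD3 peak is named after the protein-coding gene it overlaps most, which starts only at 177001340. The summit of that peak lies 120 bp before a start site, and HOXD8 starts at 176994422. The intron in the label of this window is therefore not one of HOXD3. The window at the RNU4-1 and RNU4-2 genes (chr12:120729410-120729560) and the RBM39 window (chr20:34330265-34330415) belong to the strongest. The 2 widest peaks without a gene are shown for contrast (chr16:8627047-8627197 and chr1:38494890-38495040). All are the plus strand, read from GRCh37, whose coordinates are those of hg19. Capitals mark a match on either strand to the MYB site (TAACGG and its variant CAACGG, as well as TAACTG with its variant CAACTG), the CHR element (TTTGAA and the similar TTCGAA), the E2F site (TTTCCCGC, TTTCGCGC, TTTGCCGC or TTTGGCGC), the ETS core CCGGAAGT, the CCAAT box, the TATA box TATAAA, or TCTCGCGA, an element of CpG-rich promoters that was added after these windows had been read.
HOXD3 intron: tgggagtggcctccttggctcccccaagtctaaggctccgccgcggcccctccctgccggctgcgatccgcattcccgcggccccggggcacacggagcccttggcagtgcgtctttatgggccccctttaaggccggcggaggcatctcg
BARHL2 upstream: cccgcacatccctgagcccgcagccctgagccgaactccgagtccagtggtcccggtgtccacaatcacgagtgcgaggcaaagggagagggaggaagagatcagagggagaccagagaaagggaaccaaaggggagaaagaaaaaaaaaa
RNU4-1 and RNU4-2: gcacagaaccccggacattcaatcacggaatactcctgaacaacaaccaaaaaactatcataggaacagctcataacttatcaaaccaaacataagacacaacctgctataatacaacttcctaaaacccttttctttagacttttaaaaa
RBM39 upstream: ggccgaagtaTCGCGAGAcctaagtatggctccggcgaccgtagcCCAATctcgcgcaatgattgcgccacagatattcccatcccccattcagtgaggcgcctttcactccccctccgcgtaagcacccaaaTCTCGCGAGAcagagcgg
chromosome 16 intergenic: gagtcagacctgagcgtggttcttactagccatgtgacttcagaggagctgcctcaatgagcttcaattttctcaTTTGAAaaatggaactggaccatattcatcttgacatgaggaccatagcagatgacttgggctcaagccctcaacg
chromosome 1 intergenic: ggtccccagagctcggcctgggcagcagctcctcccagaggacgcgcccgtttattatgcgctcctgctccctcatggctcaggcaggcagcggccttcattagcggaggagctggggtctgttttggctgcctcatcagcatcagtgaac

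The RBM39 window held 15 CpG dinucleotides, TCTCGCGA matches near both of its ends and 1 CCAAT box. The window at the snRNA genes, under the strongest of all broad peaks, held 2 CpG dinucleotides and none of the motifs. The intergenic window on chromosome 16 held a CHR element at its summit, also with 2 CpG dinucleotides. No printed window held a MYB site. Over all members a MYB site lay in 24.8% of summit windows, which were wider than those printed, against 27.9% over all peaks, and a CHR element in 21.2%, against 26.1%. CCAAT was found in 34.5% and 34.2%, and TATAAA in 17.0% and 20.8%. E2F sites were found in 4.74% of broad summits (interval 3.20 to 6.74%) and 1.52% of all summits, but also in 5.51% of the 1053 strong narrow peaks described next and 4.10% of the peaks from 2000 bp to just under 3000 bp. TCTCGCGA was found in 2.78% of broad and 0.530% of all summits. In the 1053 peaks under 1000 bp that were at least as strong as the median broad peak, called strong narrow peaks below, TCTCGCGA was found in 7.79% and the ETS core in 10.8%, against 1.63% in broad summits and 1.64% in all. These are matches to letters, and nothing was measured about the factors that bind them.

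Broad peaks were 3002 to 23800 bp wide, with a median of 4244 bp, and 218 of them reached 5000 bp and 32 reached 10000 bp. Together they covered 3117407 bp, or 8.94% of all bases in peaks. Their fold enrichment, the authors' ratio of fragments stacked at the highest base to those expected there from the input, had a median of 11.2 (range 2.13 to 59.98), against 3.79 over all peaks. The number of stacked fragments, or pileup, was worked back from those values and was 61 at the median against 20. A pileup of 61 has an exact Poisson interval of 46.7 to 78.4 fragments, which covers counting error only. The expected background stood at its lowest value, 3.451 fragments, in 19.1% of broad peaks, 20.3% of all peaks and 40.4% of strong narrow peaks. At that floor it is the same for every peak. A fold enrichment of at least 10 was held by 357 broad peaks (58.3%), against 6.53% of all peaks. Of the 670 strongest peaks of the whole list, 115 were broad. Among the members, width and fold enrichment were weakly related (Spearman's rho of 0.23 over 612 peaks of 1 library), and over all 66954 peaks rho was 0.58.

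**Figure D1:**
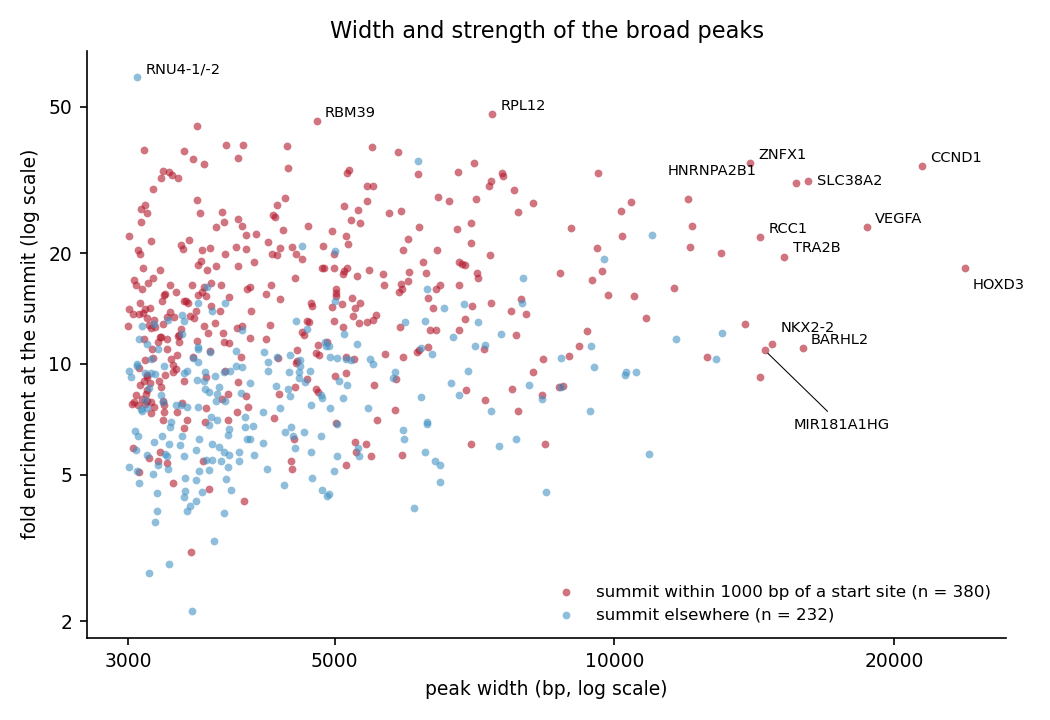
Width of each of the 612 broad peaks in bp against the authors' fold enrichment at its summit, both on log scales. Red points have the summit within 1000 bp of a transcription start site (380 peaks) and blue points elsewhere (232 peaks), and the highest point, at the RNU4-1 and RNU4-2 genes, has a fold enrichment of 59.98 and a width of 3068 bp.

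The width minimum cut through a continuous range. The 3 peaks just inside it lay at the start of SREBF1 (3002 bp, fold enrichment 12.7), at the start of HIPK3 (3005 bp, 14.1) and in an intron of IGF2BP1 (3005 bp, 5.25). The 3 just outside lay on chromosome 6 without a gene (2998 bp, 7.41), at the MEPCE and ZCWPW1 promoters (2998 bp, 26.0) and at RNF167 and PFN1 (just under 3000 bp, 6.22).

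The widest peak, chr2:176984269-177008068, spanned 23800 bp of the HOXD cluster, at 18.2-fold enrichment, where 80 fragments were stacked (interval 63.4 to 99.6). HOX genes set position along the body axis. The peak held HOXD8, HOXD9 and HOXD-AS2 whole, and met HOXD10 and the long transcript model of HOXD3. The 3 broad peaks over HOX genes all lay in HOXD, where HOXD3, HOXD8, HOXD9, HOXD10 and HOXD11 were the 5 of 39 HOX genes that had one (12.8%).

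Next came CCND1, the gene of cyclin D1, which drives the G1 phase. Its peak, chr11:69451051-69472476, was 21426 bp wide, and covered the gene of 13319 bp whole, with 4873 bp before its start and 3234 bp past its end. The summit lay on the start site, with a fold enrichment of 34.5 and 155 fragments (interval 132 to 181). VEGFA, which encodes an angiogenic growth factor, was likewise covered from start to end by 1 peak, chr6:43736975-43755648, of 18674 bp. That peak began 946 bp before the gene of 16304 bp and stopped 1424 bp past it, with a fold enrichment of 23.6. SLC38A2, an amino acid transporter gene of 14586 bp, sat in a peak of 16163 bp (chr12:46750844-46767006) that reached 450 bp before the gene and 1127 bp past it. In all 3 the summit lay within 75 bp of a start site while the peak ran the length of the gene.

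The developmental genes among the widest were lower. BARHL2, a homeobox gene of neural development, lay inside a peak of 15930 bp with a fold enrichment of 11.02 (82 fragments, interval 65.2 to 101.8). NKX2-2, a homeobox factor gene that the Ewing fusion activates, lay inside one of 14766 bp with a fold enrichment of 11.3 (63 fragments, interval 48.4 to 80.6). Both reached well outside their short genes. The BARHL2 peak went 3068 bp upstream and 7098 bp past the end of a gene of 5764 bp, and the NKX2-2 peak 9454 bp upstream and 2264 bp past a gene of 3048 bp.

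RNA-binding protein genes and snoRNA hosts were also among the widest. HNRNPA2B1, an hnRNP gene that shares its promoter with the heterochromatin protein gene CBX3, had a peak of 15689 bp with a fold enrichment of 30.9. TRA2B, a splicing regulator, had one of 15231 bp (19.6). The snoRNA host genes SNHG3, at RCC1, and ZFAS1, at ZNFX1, lay under peaks of 14342 and 13989 bp with fold enrichments of 22.1 and 35.1. MIR181A1HG, the host transcript of a miR-181 pair, had a peak of 14510 bp and a fold enrichment of 10.9.

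The strongest broad peaks were not the widest. The highest fold enrichment, 59.98, with 266 fragments, was found at chr12:120728424-120731491, which held the U4 snRNA genes RNU4-1 and RNU4-2 and no protein-coding or lncRNA gene. These copies are near-identical and reads of low mapping quality were removed, so how many reads of the 2 genes were kept is uncertain. The summit, at 120729485, lay outside both genes, of which RNU4-2 spans 120729566 to 120729706 and RNU4-1 spans 120730900 to 120731040. RPL12, a ribosomal protein gene, followed with 47.7 and the splicing factor gene RBM39 with 45.7. Of the 8 strongest, 4 were replication-dependent histone genes on chromosome 6, at H2AC8, H3C12, H3C8 and H2AC6, with fold enrichments of 38.9 to 39.3. Their widths were 3818 to 5490 bp.

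To place the broad peaks on genes, their overlap with promoters, taken as 1000 bp either side of any start site of a protein-coding or lncRNA gene, was measured. Of the 612, 482 overlapped a promoter (78.8%, interval 75.3 to 81.9%), against 34.3% of all peaks. A wide peak meets more windows than a narrow one, so the 1-base summit was also placed. It lay in a promoter in 380 broad peaks (62.1%, interval 58.1 to 66.0%), against 31.9% of all peaks. The 951 peaks from 2000 bp to just under 3000 bp gave 62.9%, inside the interval of the broad peaks, and the strong narrow peaks gave 86.3%. The strong narrow peaks are not matched to the broad peaks in strength, since they were taken from the broad median upwards (median fold enrichment 13.7 against 11.2), and broad peaks with a summit outside promoters had a median of 8.12. These are shares of 1 library, and no test was run on them.

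Gene bodies were met by 598 broad peaks (97.7%), against 87.6% of all peaks. The summit lay in a gene body in 517 (84.5%, interval 81.4 to 87.3%), against 84.1% of all peaks, so this share was near the background. On the canonical transcripts, 244 summits fell in an intron (39.9%), 109 in a 5′ UTR (17.8%), 41 in an exon of a lncRNA, 38 in coding sequence and 29 in a 3′ UTR, and 151 lay outside them. Over all peaks 62.5% of summits were intronic and 5.02% in a 5′ UTR. For 3′ UTR summits the broad peaks had 4.74% (interval 3.20 to 6.74%), near the 3.73% of all peaks, and the strong narrow peaks 0.190%.

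**Figure D2:**
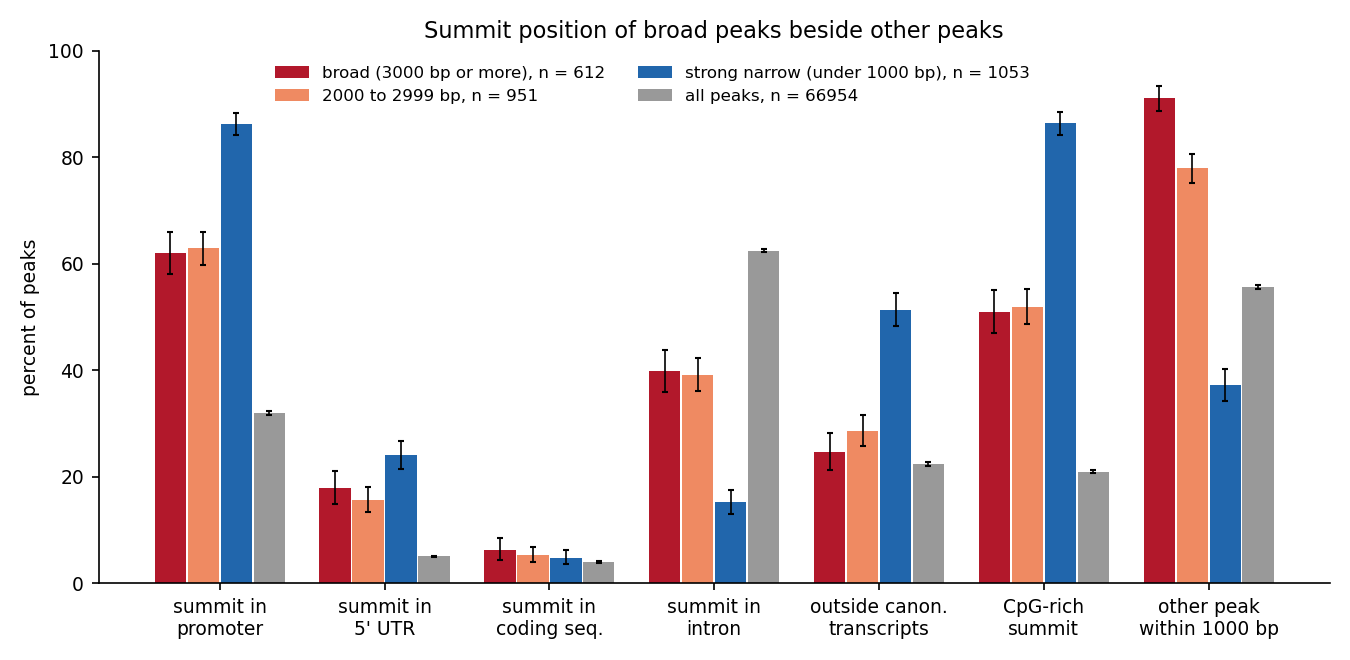
Percent of peaks, with exact 95% binomial intervals as error bars, whose summit lay in each annotated position, was CpG-rich, or had another peak within 1000 bp, for the broad peaks (612), peaks of 2000 bp to just under 3000 bp (951), strong narrow peaks (1053) and all peaks (66954). Broad peaks stand between strong narrow peaks and all peaks for promoter summits (62.1%) and above both for a neighbouring peak (91.2%).

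By what they held, 118 broad peaks contained at least 1 whole gene (19.3%, interval 16.2 to 22.6%), 335 a start site and part of its gene, and 29 a promoter window and gene body without a start site. A further 116 lay in gene bodies alone and 14 on no gene. The peaks in gene bodies alone were weaker, with a median fold enrichment of 6.88 and 40.5 fragments, than those with a whole gene, at 16.7 and 89.5 fragments. Start and end of protein-coding genes were both held by 86 broad peaks, a start alone by 190, an end alone by 96 and neither by 240.

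The summits fell into a CpG-rich and a CpG-poor group of about equal size. At 312 broad peaks the CpG observed/expected ratio of the summit window was at least 0.6, and 93.9% of these summits lay in promoters, with a median fold enrichment of 15.3. At the other 300 the share was 29.0% and the median fold enrichment 8.35. Of the 232 summits outside promoters, 213 were CpG-poor (91.8%). The median ratio over all members was 0.626, against 0.257 over all peaks and 0.879 over strong narrow peaks.

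In all, 60 broad peaks held 68 protein-coding genes from start to end. These were short genes, with a median length of 2623 bp (range 387 to 16304 bp), and 3 of them, VEGFA, SLC38A2 and CCND1, were longer than 10000 bp. The peaks reached a median of 760.5 bp before the gene and 2249 bp past its end. Behind these 3 in length came RPL37, a ribosomal protein gene of 9961 bp, RABGGTB, a prenyltransferase subunit gene that also hosts snoRNAs, of 8890 bp, and the transcription factor gene MYC, of 7518 bp. RPL37 had 801 bp of its peak before the start and 837 bp past the end. Counting several broad peaks together, 619 protein-coding genes had a broad peak over the body and 86 of them were covered over 90% or more of their length. The median length of the 619 was 20133 bp, against 27256.5 bp for all protein-coding genes.

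Where a broad peak held start sites, most of it lay on the transcribed side. Of 453 with a start site, 170 held start sites of both strands, which leaves no single direction, and 283 those of 1 strand. In these 283 a median of 75.3% of the bases lay on the transcribed side of the start site nearest the summit (range 8.30 to 99.3%), and 235 had over 50% there (83.0%, interval 78.2 to 87.2%). The median was 54.4% over the 10023 peaks of any width with start sites of 1 strand, 64.1% from 2000 bp to just under 3000 bp and 50.9% in strong narrow peaks, where 51.8% of peaks had over 50%. Within the broad peaks it was 70.5% below 5000 bp and 83.3% from 5000 bp. It was 75.7% with a CpG-rich and 74.9% with a CpG-poor summit. Width chose these peaks, and a peak wider than the promoter must reach some way to one side or both.

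**Figure D3:**
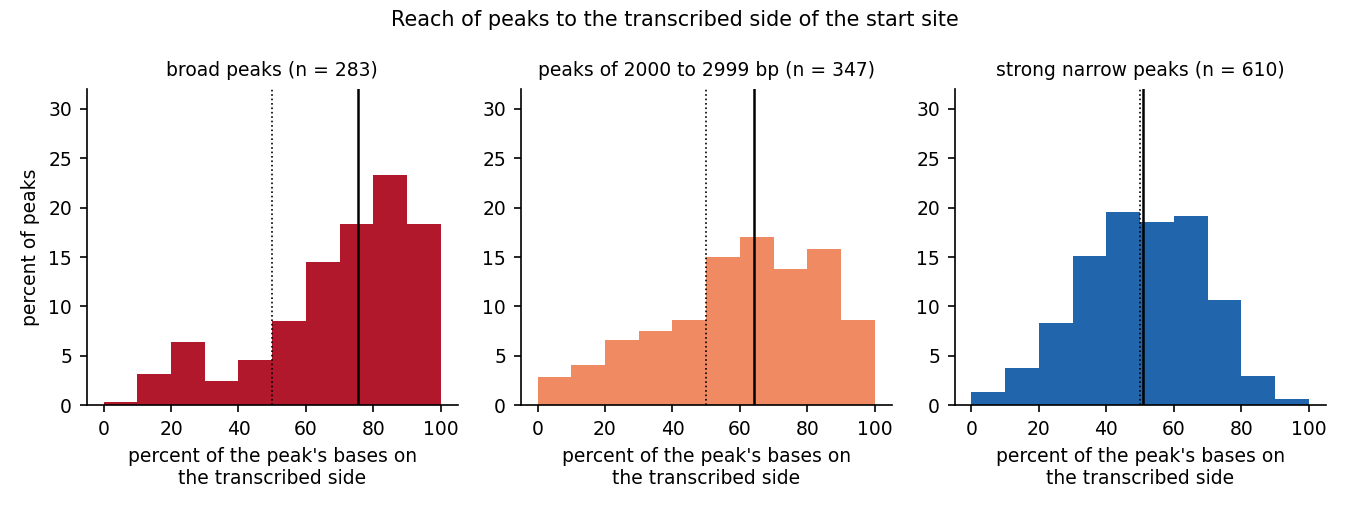
Percent of a peak's bases on the transcribed side of the start site nearest its summit, for peaks with start sites of 1 strand, as histograms for broad peaks (283), peaks of 2000 bp to just under 3000 bp (347) and strong narrow peaks (610). The solid line is the median (75.3%, 64.1% and 50.9%) and the dotted line marks 50%.

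To name the gene classes under the broad peaks, 15 gene lists were counted, written from general knowledge with earlier results of these data known. Over all 20098 protein-coding genes, 625 had a broad peak over the gene or a promoter (3.11%), and over lncRNA genes 1.38%. A peak of any width was far more common, over 65.4% of protein-coding genes. The list shares below are to be read against these backgrounds, and the lists were not tested.

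Splicing factor genes of the hnRNP and SR families held a broad peak in 20 of 38 (52.6%, interval 35.8 to 69.0%), under 30 peaks with a median fold enrichment of 15.0. Summits lay in a promoter in 26 of the 30. SRSF2 was covered whole by a peak of 7329 bp with a fold enrichment of 30.4. HNRNPU had 3 broad peaks of 7880 to 9833 bp, and HNRNPK one of 8976 bp at its start and one of 3522 bp near its end. SFPQ, a splicing factor gene outside the list, had 3 over 96.1% of its length.

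Hosts of snoRNAs, small RNAs that guide modification of ribosomal RNA, were as frequent. Of 24 lncRNA host genes, 13 had a broad peak (54.2%, interval 32.8 to 74.4%), with a median fold enrichment of 22.3. SNHG1 (7069 bp, 35.1), GAS5 (8173 bp, 27.4) and SNHG12 (5294 bp, 26.1) were covered over 100%, 79.2% and 87.5% of their lengths. Of all 1455 annotated snoRNA genes, 64 lay in a broad peak (4.399%), against 20 of 3029 miRNA genes (0.660%). MALAT1 and NEAT1, long noncoding RNAs of nuclear speckles and paraspeckles, had peaks of 12003 and 10175 bp with fold enrichments of 28.1 and 26.0, the only ones among 10 abundant nuclear RNA genes.

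The translation machinery was next. Cytoplasmic ribosomal protein genes had a broad peak in 36 of 86 (41.9%, interval 31.3 to 53.0%), under 40 peaks of 3085 to 11599 bp with a median fold enrichment of 18.3. RPS12 (7586 bp, 32.4), RPS28 (4459 bp, 34.03) and RPL10A (5124 bp, 26.8) were covered whole. RPL13, RPL5 and RPL37A each had a strong peak at the start and a second, lower one further on, as at RPL5 with 25.6 and then 9.99. Of 24 translation factor and related genes 7 had one (29.2%, interval 12.6 to 51.1%), among them EIF4A1 (30.5), EIF4A2 (28.4) and EEF1A1.

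Replication-dependent histone genes, which encode the core histones of S phase, had a broad peak in 19 of 66 (28.8%, interval 18.3 to 41.3%). These were 10 peaks only, since clustered histone genes share them, and all 10 were strong, with fold enrichments of 32.6 to 39.3 and widths of 3123 to 5490 bp. The snRNA genes of the spliceosome gave 1 peak, over RNU4-1 and RNU4-2, for 2 of 38 genes (5.26%).

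Glycolysis genes had a broad peak in 6 of 18 (33.3%, interval 13.3 to 59.0%), with GAPDH the strongest at 37.5 over 5853 bp and ENO1 covered by 3 peaks over 73.8% of its length. A gene was counted even where a peak met only its edge. The peaks counted for ENO2 and TPI1 covered 1.025% and 3.264% of these genes. Cytoskeleton genes had one in 5 of 26 (19.2%), namely ACTB (2.224% of the gene covered), MYL6, STMN1, TUBB and VIM. Immediate early genes, which respond within minutes to growth signals, had one in 5 of 28 (17.9%): IER2, JUND, KLF6, MYC and ZFP36L1. Heat shock protein genes had one in 2 of 18 (11.1%), HSP90AB1 and HSPA8.

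Genes that the Ewing fusion activates had a broad peak in 8 of 30 (26.7%, interval 12.3 to 45.9%). Beside CCND1 and NKX2-2 these were NR0B1, a nuclear receptor gene lying whole in a peak of 7556 bp with a fold enrichment of 12.0 and its summit 5104 bp from a start site, LIPI, BCL11B, IL1RAP, SOX6 and UGT3A2. The median fold enrichment of their 10 peaks, 10.4, was below that of the ribosomal protein and snoRNA host lists. Homeobox genes outside the HOX clusters, a list added after the widest peaks had been seen, had one in 11 of 114 (9.65%, interval 4.92 to 16.6%), among them DLX2, MEIS1, OTX2, POU3F1 and VAX1, with fold enrichments of 6.36 to 15.7.

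Late cell cycle genes, the class that MYBL2 and MuvB are known for, stood near the background. All 50 had a deposited peak of some width, yet 2 had a broad one (4.0%, interval 0.488 to 13.7%). At HMMR, a spindle protein gene, it lay at the start (3033 bp, fold enrichment 13.7). At CCNA2, the gene of cyclin A2, its summit lay in the 3′ UTR (3494 bp, 4.12, with 30 fragments). The genes that the study followed up had narrower peaks. The widest peak was 2186 bp at CCNF, a gene of an F-box protein, 1822 bp at BIRC5, the gene of survivin, and 1178 bp at AURKB, a mitotic kinase gene. At MYBL2 itself it was 1431 bp. The widest peaks at CCNF, BIRC5, AURKB and MYBL2 had fold enrichments of 10.2, 3.79, 19.1 and 10.8, within the range of the broad peaks. Those at CCNF and BIRC5 were chr16:2508665-2510850 and chr17:76220499-76222320. Each was chosen by width alone, and its place relative to the promoter was not examined. The paper shows peaks in the promoters of the genes it followed up. The widest peak at a gene need not be its promoter peak.

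**Figure D4:**
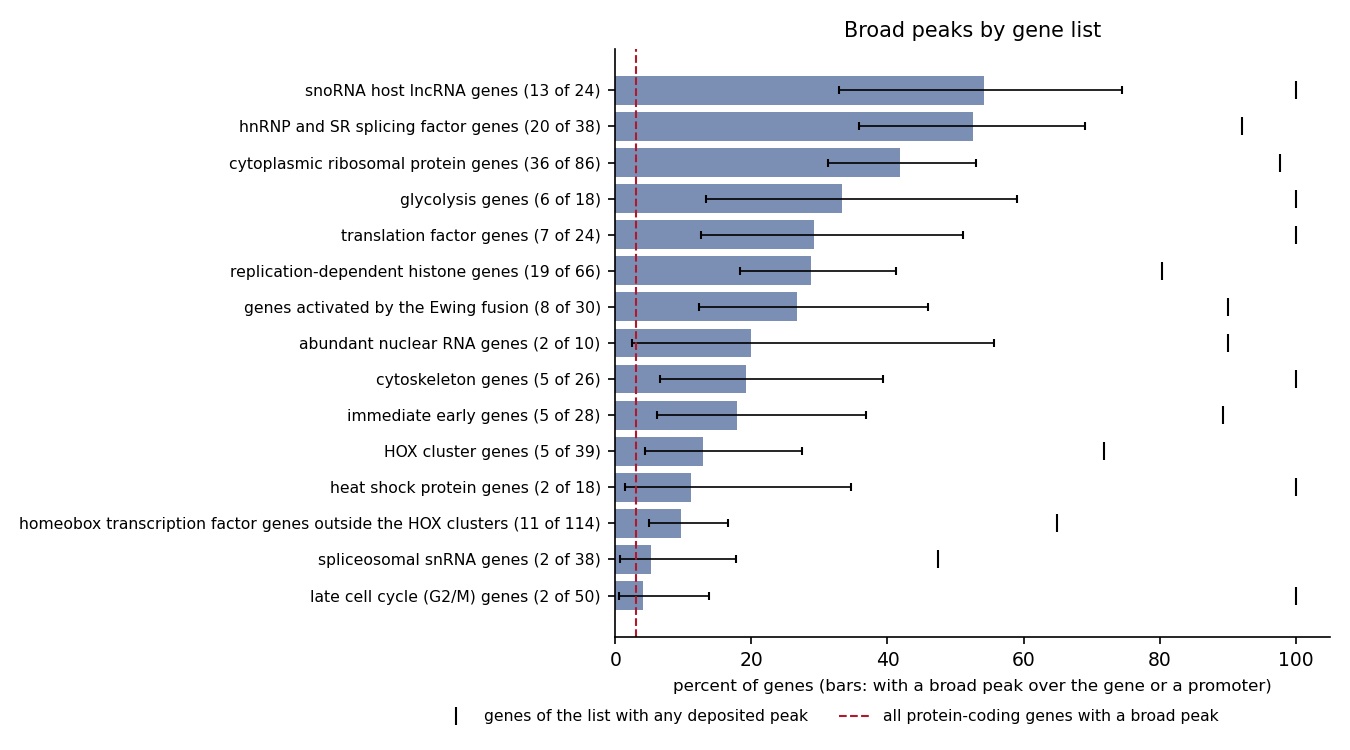
Percent of the genes in each of 15 lists with a broad peak over the gene or a promoter (bars, with exact 95% binomial intervals), with the percent that had any deposited peak (ticks) and the share of all protein-coding genes with a broad peak (dashed line, 3.11%). The lists run from 54.2% for snoRNA hosts to 4.0% for late cell cycle genes, although every one of the latter had a peak.

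To tell single from clustered broad peaks, those with another within 50 kb, edge to edge, were counted. There were 258 (42.2%, interval 38.2 to 46.2%) in 95 clusters, 63 of them pairs and 32 of 3 to 7 peaks, and 354 stood alone. Most of the clustered peaks, 197 of 258 (76.4%), shared their gene with another peak of the cluster. The single peaks had the summit in a promoter in 72.9%, a CpG-rich summit in 62.4% and a median fold enrichment of 12.5. For the clustered these were 47.3%, 35.3% and 9.55. Peaks of any width were often close by, since 91.2% of broad peaks had another deposited peak within 1000 bp, against 55.6% of all peaks, and the median gap to it was 182 bp. The smallest gap between deposited peaks was 102 bp, and stretches that far apart were counted as separate peaks.

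The 5 largest clusters held 6 or 7 broad peaks each. Over CAPRIN1, a gene of an RNA-binding protein of stress granules, 7 peaks lay at chr11:34070410-34127671 and covered 64.0% of the gene. The first and the last, whose summits lay within 52 bp of a start site, were the strongest, with fold enrichments of 17.5 and 18.2, and the 5 between them had 4.43 to 8.32. The last ran past the gene end at 34124157, and its summit lay outside canonical transcripts. The start site near that summit therefore need not belong to CAPRIN1. The cluster at FADS1 and FADS2, fatty acid desaturase genes (chr11:61564635-61635397), held 7. The strongest, of 4121 bp, had a fold enrichment of 22.5, and the middle one, of 13003 bp, had 20.0. At SLAIN1, a gene of a microtubule protein, 6 peaks on the gene and 1 beyond it, of 3191 to 6252 bp, had fold enrichments of 3.98 to 7.17, none of them at the level of the median broad peak. HMCN1, a gene of an extracellular matrix protein 456559 bp long, had 7 over 5.07% of its length. At BASP1, a gene of a membrane-bound neuronal protein, the first of 6 lay at a start site with a fold enrichment of 13.3 and the other five had 4.70 to 7.76.

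In all, 103 genes had 2 or more broad peaks over the body, of which 85 were protein-coding, and in several the peaks tiled the gene almost without a break. TRA2B was covered over 99.4% of 23546 bp by peaks of 15231 and 8804 bp that stood 141 bp apart. The first had a fold enrichment of 19.6 (112 fragments) and the second 8.72 (50 fragments). CAV1, the gene of caveolin 1, was covered over 91.4% of 36186 bp by 4, with 20.8 at the start and 9.83, 8.64 and 8.77 beyond it. SFPQ had 27.6 at the start, then 10.9 and 10.1. OTX2, a homeobox gene of 16789 bp, was covered over 88.6% by 4 peaks and differed in order, with 6.64, 15.7, 7.73 and 11.5. In TRA2B, CAV1 and SFPQ the first peak was thus the highest. The later ones had CpG-poor summits, with ratios of 0 to 0.377, and so did the first peak of CAV1, at 0.561. Around NKX2-2 the widest peak and 3 more made a run of 4, with fold enrichments of 11.3, 10.6, 5.77 and 7.54.

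**Figure D5:**
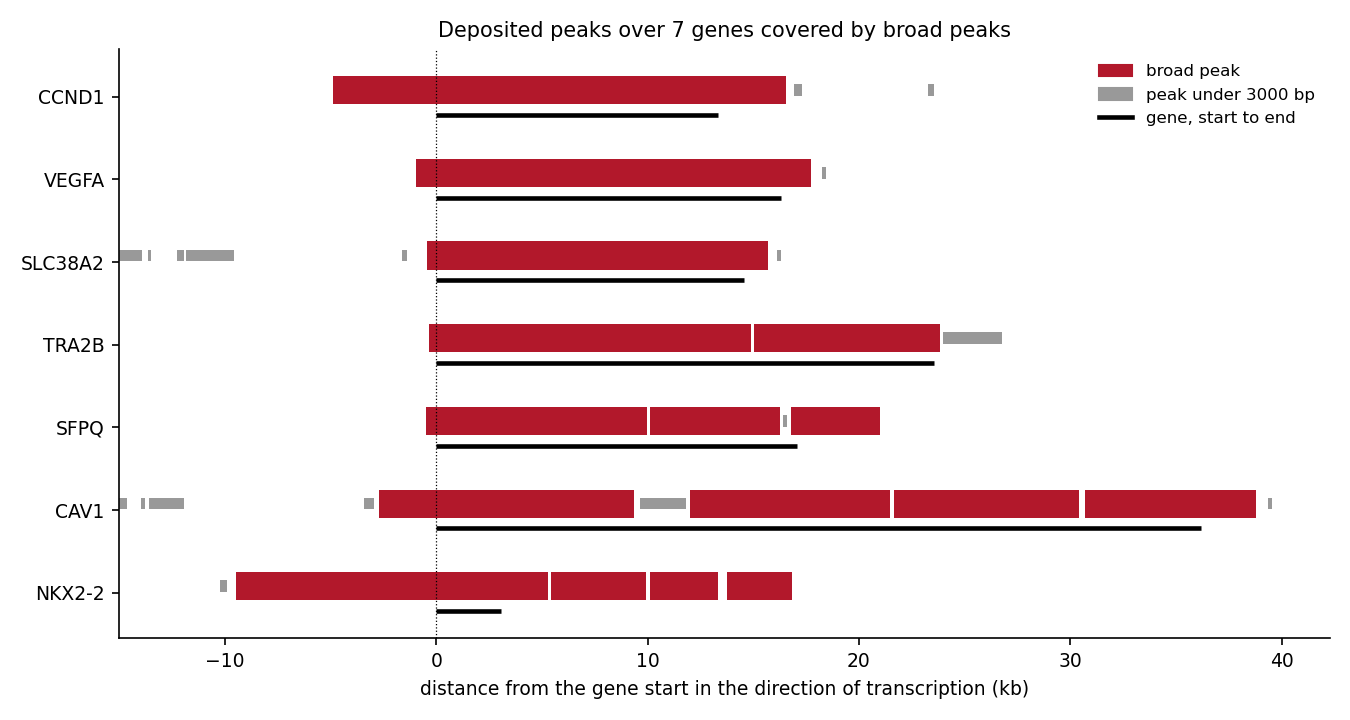
Deposited peaks over 7 genes, by distance in kb from the gene start in the direction of transcription. Red bars are broad peaks, grey bars peaks under 3000 bp and black lines the genes. CCND1, VEGFA and SLC38A2 lie in 1 broad peak each, TRA2B, SFPQ and CAV1 under 2 to 4 in a row, and the run at NKX2-2 extends past the gene on both sides.

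The 14 broad peaks on no protein-coding or lncRNA gene had a median width of 3429 bp and a median fold enrichment of 9.37, and the snRNA peak was 1 of them. The widest, chr16:8626728-8634678, was 7951 bp wide with a fold enrichment of 14.7 and lay 4424 bp from TMEM114. A peak of 5802 bp at chr1:38490717-38496518 lay 225 bp from UTP11, a gene of ribosome assembly, and a peak of 4483 bp at chr20:21484790-21489272 lay 118 bp from the NKX2-2 peak. A peak of 3672 bp on chromosome 9 was the most isolated of the widest 5, at 23346 bp from LINC00474, and one of 3570 bp on chromosome 7 completed them.

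GGAA repeats, the sequence that the Ewing fusion binds and turns into enhancers, were sought as runs of 4 or more GGAA units on either strand. The runs and their unit counts are those of the GRCh37 reference. The paper describes repeat numbers that vary between individuals, and the lengths in A673 cells were not measured here. The longest runs in the BARHL2 peak (chr1:91174857-91174968) and in the CAV1 peak (chr7:116163111-116163234) are printed with 30 bases either side, with the run in capitals.
BARHL2 repeat: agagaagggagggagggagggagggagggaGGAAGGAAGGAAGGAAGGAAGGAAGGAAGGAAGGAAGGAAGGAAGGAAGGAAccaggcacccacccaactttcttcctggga
CAV1 repeat: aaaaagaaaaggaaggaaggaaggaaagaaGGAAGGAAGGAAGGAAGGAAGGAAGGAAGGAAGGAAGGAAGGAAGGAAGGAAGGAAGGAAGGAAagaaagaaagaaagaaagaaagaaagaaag

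The BARHL2 run had 13 units and the CAV1 run 16. No broad peak held a longer run than 16 units, and LINGO1, LINC01117 and LINC01310 had runs of that length too. In all 22 broad peaks held a run (3.59%), against 0.417% of all peaks, but per length the broad peaks had 8.66 runs per Mb and all peaks 9.90. The peaks of 2000 bp to just under 3000 bp had 21.2 per Mb. Of the 22, 18 had a CpG-poor summit and 14 a summit outside promoters. For comparison, CpG-rich summits made up 51.0% of the broad peaks and 21.0% of all peaks, and promoter summits 62.1% and 31.9%. The nearest run lay a median of 830.5 bp from the summit, within 500 bp in 10 of the 22. The 3 fusion targets with the widest peaks, CCND1, NKX2-2 and NR0B1, held no run inside them.

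Broad peaks were found on all 23 chromosomes examined. Their share of the peaks of a chromosome ran from 0.508% (7 of 1379, interval 0.204 to 1.04%) on chromosome 18 to 1.73% (25 of 1447, interval 1.12 to 2.54%) on chromosome 13, and was 1.40% (47 of 3366, interval 1.03 to 1.85%) on chromosome 11, with CCND1, MALAT1, NEAT1, CAPRIN1 and FADS2. The intervals of chromosomes 11 and 13 lay above 0.914%, the share in the whole list, and those of the other chromosomes contained it. These intervals treat each peak as independent, which neighbouring peaks of 1 locus are not. SLAIN1 alone gave 7 of those on chromosome 13, and CAPRIN1 and FADS2 gave 7 each on chromosome 11. No difference between the 23 chromosomes was tested.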

How the data were processed

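One MYBL2 immunoprecipitation library and 1 input library of A673 cells were used. According to the methods, Bowtie2 was used by the authors to place single-end reads on hg19, and peaks were called with MACS2 against the input. The removal of reads of low mapping quality is given in the reporting summary of the study. The submitters' processing notes give Bowtie2 2.1.10 and MACS2 2.0.10. The peak list is described as cleaned, and that step is not given in the sources used here. The deposited values per peak are a score, a fold enrichment (the ratio of pileup to background at the summit, with 1 added to each), −log10 p-values and −log10 q-values. The deposited peak list holds no read totals, so the read depth stated in the reporting summary of the study could not be recomputed and is not used here. The pileup was recovered from the deposited fold and −log10 p for 66954 of 66954 peaks, and its Poisson 95% interval covers counting error only.

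Peaks of 3000 bp or more were kept. They were placed on GENCODE v44lift37 genes (20098 protein-coding, 18592 lncRNA), with promoters of 1000 bp either side of a start site and clusters within 50 kb. Motifs were sought in 301 bases around summits, and sequences were read from GRCh37. The genes named were those of the 12 widest and 8 strongest broad peaks, the 5 widest without a gene, the 5 largest clusters, genes with 2 or more broad peaks, list members with one, CCNF, BIRC5 and AURKB, and the 3 peaks on either side of the width minimum. Some of these are not reported here. RABGGTB and MYBL2 were named after their values were seen. The members and lists were chosen with earlier results of these data known. The homeobox list, the TCTCGCGA motif and the use of the first start site were added after seeing the data. Alternatives changed the width minimum, joining of peaks, promoter definition, gene set and cluster distance. Steps were tested on simulated data. Python 3.11.15, numpy 2.4.6, pandas 2.3.3, scipy 1.17.1, pysam 0.24.0, samtools 1.23.1 and matplotlib 3.10.9 were used.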

Additional observations from a re-analysis of the deposited data

How the results depend on the processing

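With 1 library per group, no value has a replicate error, and none of the differences between kinds of peaks was tested. No paired analysis was possible because there was a single library on either side. Of 46 values recomputed under an alternative, 15 stayed within their interval and 31 moved beyond it. For the number of broad peaks a fixed range of 408 to 918 was used in place of a statistical interval. The cause was not tested where the alternative's construction does not show it. With a width minimum of 2000 bp there were 1563 broad peaks, of which 74.5% overlapped a promoter, 10.8% held a whole gene and 55.0% were clustered, with 68.8% of bases on the transcribed side and a median fold enrichment of 10.1. With 5000 bp there were 218, with 88.1% overlapping a promoter, 69.3% with a promoter summit, 89.0% with a summit in a gene body, 29.8% with a whole gene, 24.3% clustered, 83.3% of bases on the transcribed side and a fold enrichment of 13.4. Joining peaks within 1000 bp gave 2686 broad peaks, with 69.3% overlapping a promoter, 56.1% with a promoter summit, 59.6% clustered and a fold enrichment of 7.68. Promoters from 5000 bp upstream to 1000 bp downstream gave 83.0% overlap and 71.7% of summits, and promoters of 500 bp either side gave 54.4% of summits. Outermost start sites alone gave 60.5% and 45.9%. Protein-coding genes alone gave 71.4% overlap, 54.7% of summits in promoters, 73.7% in gene bodies and 9.80% with a whole gene. Cluster distances of 10 kb and 100 kb gave 31.9% and 47.5% clustered. Counting from the first start site, chosen after seeing the data, gave 84.4% of bases on the transcribed side.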
